A study of Schizosaccharomyces pombe with 36 samples.

Results

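The comparison described here is that of stn1-226 with wild type at 34 °C in the fission yeast Schizosaccharomyces pombe, made by polymerase usage sequencing. Its members are the 8 libraries of both genotypes at that temperature, of 36 in the series: 2 Pol delta and 2 Pol epsilon libraries of each genotype. They were chosen by their titles, and same-numbered libraries of a polymerase were treated as a pair. The matching 8 libraries at 25 °C were used to ask whether a difference depended on temperature. Libraries of rif1 deletion and of stn1-226 with rif1 deletion entered the fits, where they lent their spread. The sites of initiation were found in all 32 libraries without taz1 deletion.

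Per the labels, the wild type strains are h- and carry rnh201-RED:kan, ade6-704, leu1-32 and ura4-D18, with cdc6-L591G (mutant Pol delta, strain 856) or cdc20-M630F (mutant Pol epsilon, strain 655). The stn1-226 strains carry stn1-226, marked as temperature-sensitive, rnh201{delta}::hphNT1, leu1-32 and ura4-, with loxp:cdc6-I591G:loxm3 (MV1332) or loxp:cdc20-M630F:loxm3 (MV1333). No mating type and no ade6 allele are listed for them, and the residue of the cdc6 allele is spelled differently in the 2 genotypes. What all 4 strains share is leu1-32, a ura4 mutation (ura4-D18 or ura4-), a mutant replicative polymerase and loss of ribonucleotide removal by RNase H2. Each genotype and polymerase is 1 strain, so the libraries of a group may be technical replicates, p-values measure only the spread between these samples, and strain background cannot be told apart from the stn1 allele. All cells were grown in YE medium to log phase.

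Stn1 acts with Ten1 at chromosome ends, where the pair protects the telomere and helps to fill in the strand that is copied by lagging-strand synthesis. The shelterin protein complex, which includes Pot1, Tpz1, Poz1, Ccq1, Rap1 and Taz1, coats the telomere repeats next to which the subtelomeres lie. Subtelomeres are gene-poor, repeat-rich stretches that fission yeast copies late in S phase. In polymerase usage sequencing, the mutant polymerase leaves extra ribonucleotides in the strand that it makes, alkali cuts the DNA there, and the fragment ends are counted on each strand. Leading strands are mainly the product of Pol epsilon and lagging strands mainly that of Pol delta, so the strand on which ends lie tells which way the fork moved.

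The 8 libraries held 5801492 to 24241937 ends, in bins of 300 bp. Over stn1 itself (SPBC409.12C, chromosome II 1161485 to 1163082) wild type held 0.99 to 1.32 times the median bin and stn1-226 0.91 to 1.27, which does not check an allele that is not a deletion. Over rnh201, which encodes the RNase H2 subunit that cuts, wild type held 0.17 to 0.25 and stn1-226 0.035 to 0.15. Over ura4 (chromosome III 115589 to 116625) wild type held 0 to 0.10 and stn1-226 0.49 to 1.19, although its labels state ura4-. The genome-wide spread of the strand bias (SD of the log2 ratio) was similar in the Pol delta libraries of replicate 1, at 1.21 in wild type and 1.20 in stn1-226, and lower in stn1-226 in replicate 2, at 1.07 and 1.003. For Pol epsilon it was 1.44 in wild type and 1.62 in stn1-226 in replicate 1, and 1.52 and 1.19 in replicate 2. Those spreads therefore moved in opposite ways in the Pol epsilon pairs, and the results below are also given with each library scaled to its own spread where that changes a count.

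Sequences of 2 sites show what the sites of initiation discussed below look like, ars1 as an early origin that serves as reference and the site beside hry1 because it lies in the block with the largest change of fork direction; the latter was chosen after its values were seen. Both are read from RefSeq assembly ASM294v3, plus strand, with runs of 6 or more A or of 6 or more T in capitals, on either strand. The ars1 stretch, chrI:1095751-1096050, lies between hus5 and a pair of tRNA genes and overlaps the edge of the noncoding gene SPNCRNA.2478. The hry1 stretch, chrI:5501851-5502150, lies upstream of hry1 and overlaps SPNCRNA.4476.
ars1 site: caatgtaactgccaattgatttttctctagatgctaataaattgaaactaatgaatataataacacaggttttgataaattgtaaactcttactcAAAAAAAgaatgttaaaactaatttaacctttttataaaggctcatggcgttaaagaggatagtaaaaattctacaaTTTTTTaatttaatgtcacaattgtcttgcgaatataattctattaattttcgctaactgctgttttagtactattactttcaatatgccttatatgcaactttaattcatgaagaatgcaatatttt
hry1 site: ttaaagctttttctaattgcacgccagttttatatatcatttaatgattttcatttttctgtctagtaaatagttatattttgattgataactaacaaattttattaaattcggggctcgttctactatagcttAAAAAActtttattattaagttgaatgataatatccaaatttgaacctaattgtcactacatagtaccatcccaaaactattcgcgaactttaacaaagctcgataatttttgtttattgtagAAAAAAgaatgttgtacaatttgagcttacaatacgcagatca
The 300 bases hold 75.0% A and T at ars1 and 73.3% beside hry1, against 63.9% in the genome. Such runs make up 13 bases of the first and 12 of the second, and 55.2% of all 300 bp bins of the genome hold at least 1 run, so the match is a description only.

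Fork direction was compared first, in blocks of 50 kb counted from each chromosome end. It is the log2 ratio of ends left by outward forks, which run to the telomere, over ends left by inward forks, so a value above 0 means that outward forks prevail. Near the ends of chromosomes I and II this ratio was lower in stn1-226 than in wild type. Summed at 50 to 100 kb, the change was -0.44 log2 for Pol delta and -0.23 for Pol epsilon (SE 0.033 each). Whether the change in direction differed between the polymerases was not tested. With the changes of both polymerases averaged, 6 of 252 blocks fell and 0 rose (edgeR, adjusted p at or under 0.05; 2.38% of blocks fell). All 6 were among the 8 blocks that make up the outer 100 kb of both arms of chromosomes I and II. In this fit 0 of the other 244 blocks passed, but blocks elsewhere did pass with ratios scaled by strand bias (below).

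The block 50 to 100 kb from the right end of chromosome I (chromosome I 5479201 to 5529000, nearest gene at its middle hry1, which encodes a cation-binding protein of the HHE family) changed most. In Pol delta libraries its direction was 1.04 and 0.89 in wild type and 0.23 and 0.31 in stn1-226 (replicates 1 and 2). In Pol epsilon libraries it was 0.64 and 0.62 in wild type and 0.25 and 0.13 in stn1-226. The groups did not overlap for either polymerase, and outward forks still prevailed in all 4 stn1-226 libraries. With 2 libraries a group, a lack of overlap here and below is a description only, and its share over all blocks is not given. The fitted change was -0.57 log2 (SE 0.042, adjusted p = 1.6e-05).

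The block 50 to 100 kb from the right end of chromosome II (4439701 to 4489800, nearest SPBPB2B2.05, annotated as a class I glutamine amidotransferase) showed the same order. Pol delta libraries gave 0.85 and 0.74 in wild type and 0.43 and 0.28 in stn1-226. Pol epsilon libraries gave 0.38 and 0.49 in wild type and 0.18 and 0.28 in stn1-226. Again no library of one genotype reached the other, and the mean change was -0.32 log2 (SE 0.025, adjusted p = 1.6e-05). At the left ends, the block of chromosome I 50101 to 99900 (SPAPJ695.02) fell by 0.26 log2 (SE 0.023, adjusted p = 3.8e-05), and that of chromosome II 50101 to 99900 (SPBPB21E7.09, an L-asparaginase) fell by 0.19 log2 (SE 0.027, adjusted p = 0.0015). Every inner block was therefore lower in stn1-226. In the last of them the change lay in the Pol delta libraries, from 0.67 and 0.62 to 0.33 and 0.32, whereas the Pol epsilon libraries gave 0.40 and 0.52 in wild type and 0.39 and 0.39 in stn1-226.

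The outermost 50 kb were less uniform. The left terminal block of chromosome I (1 to 50100, SPAC212.03) fell by 0.23 log2 (SE 0.027, adjusted p = 0.00037) and that of chromosome II (1 to 50100, SPBC1348.09, a dehydrogenase) by 0.24 log2 (SE 0.025, adjusted p = 0.00016). In the latter, Pol delta libraries gave 0.23 and 0.26 in wild type and -0.05 and -0.04 in stn1-226, so that by Pol delta forks no longer prevailed outward. The polymerases differed on the prevailing direction in this zone. Summed over the terminal 50 kb of chromosomes I and II, wild type gave 0.47 and 0.42 for Pol delta and -0.06 and -0.10 for Pol epsilon. The right terminal blocks did not pass, with 0.03 log2 (SE 0.026, adjusted p = 0.80) on chromosome I (pdc102, a pyruvate decarboxylase) and 0.05 log2 (SE 0.067, adjusted p = 0.91) on chromosome II (SPBCPT2R1.04C). On the right end of chromosome II the polymerases differed in sign, with Pol delta at -0.15 log2 (SE 0.094) and Pol epsilon at 0.25 log2 (SE 0.094), neither past the threshold.

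**Figure D1:**
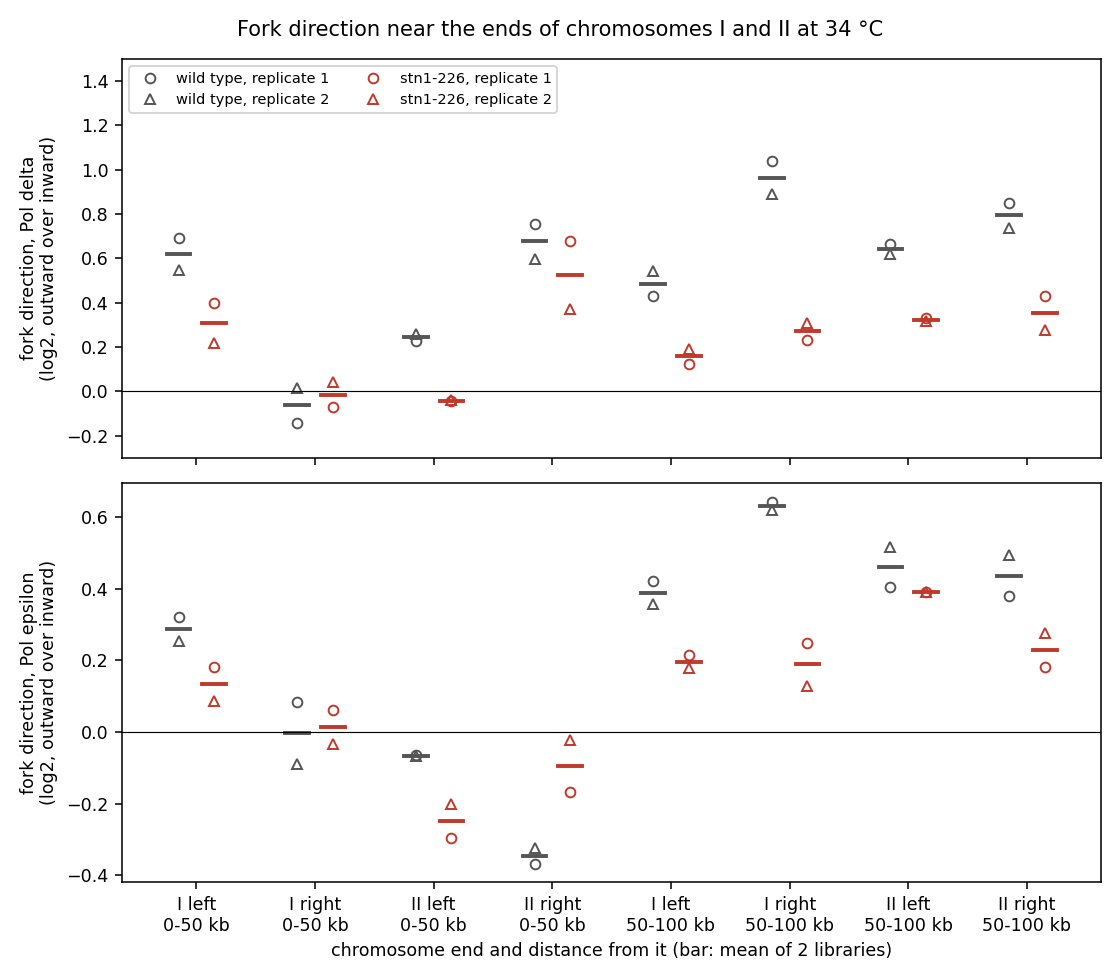
Fork direction (log2 of outward over inward ends) per library in the 8 blocks of the outer 100 kb on chromosomes I and II, with Pol delta above and Pol epsilon below; circles and triangles are replicates 1 and 2, and bars are means of 2 libraries. In the 4 blocks at 50 to 100 kb the Pol delta libraries of stn1-226 lie between 0.12 and 0.43 and those of wild type between 0.43 and 1.04. They do not overlap within any of these blocks, a description of 2 libraries a group.

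Each polymerase alone showed the pattern. For Pol delta 10 of 252 blocks passed (3.97%), of which 8 fell and 2 rose, and 6 of the falls were in the 8 blocks near the ends. The other 4 each had an adjusted p of 0.049; leaving out any 1 Pol delta library or either wild type Pol epsilon library left 6 calls, all falls, and the call of the mating-type block was lost without any 1 of the 8 libraries. They were gms2 (chromosome I 300001 to 350100, -0.24 log2), the block of the mating-type region (-0.44 log2), dea2 (chromosome II 150001 to 200100, 0.16 log2) and dsh1 (chromosome II 399901 to 450000, 0.18 log2). For Pol epsilon 5 of 252 blocks passed (1.98%), of which 4 fell, all in the 8 blocks near the ends, and 1 rose (pyp2, a protein phosphatase, chromosome I 5179201 to 5229000, 0.27 log2), a call lost without any 1 stn1-226 library or wild type Pol epsilon 2. The Pol epsilon calls rest on 2 libraries: 0 blocks passed without stn1-226 Pol epsilon 1 or without wild type Pol epsilon 2, while the change of the hry1 block was then -0.49 and -0.43 log2 (adjusted p = 0.070 and 0.075); 8 and 26 blocks had an unadjusted p under 0.05. With each library's ratios divided by its own spread of strand bias (limma), 53 Pol delta blocks (18 rose, 35 fell) and 23 Pol epsilon blocks (10 rose, 13 fell) passed, so the number of rises depends on that choice.

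The 4 blocks at the same distance were also summed. At 50 to 100 kb the sum for Pol delta was 0.74 and 0.70 in wild type and 0.28 and 0.27 in stn1-226, and for Pol epsilon 0.46 and 0.50 in wild type and 0.25 and 0.24 in stn1-226. The mean change was -0.34 log2 (SE 0.023, adjusted p = 1.6e-05 over the blocks and 6 sums). The sum of the terminal 50 kb changed by -0.08 log2 as the mean of both polymerases (SE 0.032, adjusted p = 0.49), a change that passed when ratios were scaled by strand bias (-0.095 log2, adjusted p = 0.0038). For Pol delta alone that sum fell by 0.20 log2 (SE 0.046, adjusted p = 0.044), a call lost without any 1 of 6 libraries (all 4 of Pol delta and stn1-226 Pol epsilon 1 or 2), and for Pol epsilon it changed by 0.04 log2 (SE 0.046, adjusted p = 0.96). The mean sum at 100 to 150 kb changed by -0.03 log2 (SE 0.030, adjusted p = 0.91). On chromosome III, whose ends carry the ribosomal DNA in place of subtelomeres of this kind, the sums at 0 to 50 kb and 50 to 100 kb changed by 0.00 and -0.00 log2 (SE 0.038 and 0.025). The 3 centromeres with 50 kb on each side changed by -0.02 log2 (SE 0.028). Of these sums, that at 50 to 100 kb on chromosomes I and II had the largest change.

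Windows of 10 kb resolved the ends further, as values without a test. Of the 20 windows at 50 to 100 kb, 19 were lower in stn1-226 and 17 were lower in all 4 pairs of libraries, with a median of -0.37 log2. Of the 20 windows within 50 kb, 16 were lower and 6 were lower in all 4 pairs (median -0.10), and of the 40 windows at 100 to 200 kb, 25 were lower and 3 in all 4 pairs (median -0.01, lowest -0.33 in the window 100 kb from the left end of chromosome I). The window of put4, a proline permease gene, 80 kb from the right end of chromosome I, moved most, from 0.88 to -0.11 as means of 4 libraries. In that window outward forks prevailed in all 4 wild type libraries. In stn1-226 the mean joins opposite signs, with -0.50 and -0.29 for Pol delta and 0.24 and 0.11 for Pol epsilon. The windows of ght3, a gluconate transporter gene 80 kb from the left end of chromosome I (0.91 to 0.26), and pho84, a phosphate transporter gene 90 kb from the right end of chromosome II (1.28 to 0.76), moved likewise. The exception at this distance was the window of dak2, a dihydroxyacetone kinase gene, which went from -0.26 to 0.00. That mean, too, joins opposite signs in stn1-226, with 0.44 and 0.32 for Pol delta and -0.50 and -0.25 for Pol epsilon. The windows of put4, ght3, pho84 and dak2 were named after their values were seen. They are not a ranking, since the window of SPAC869.03C changed by -0.63 log2 and that of pho84 by -0.52.

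**Figure D2:**
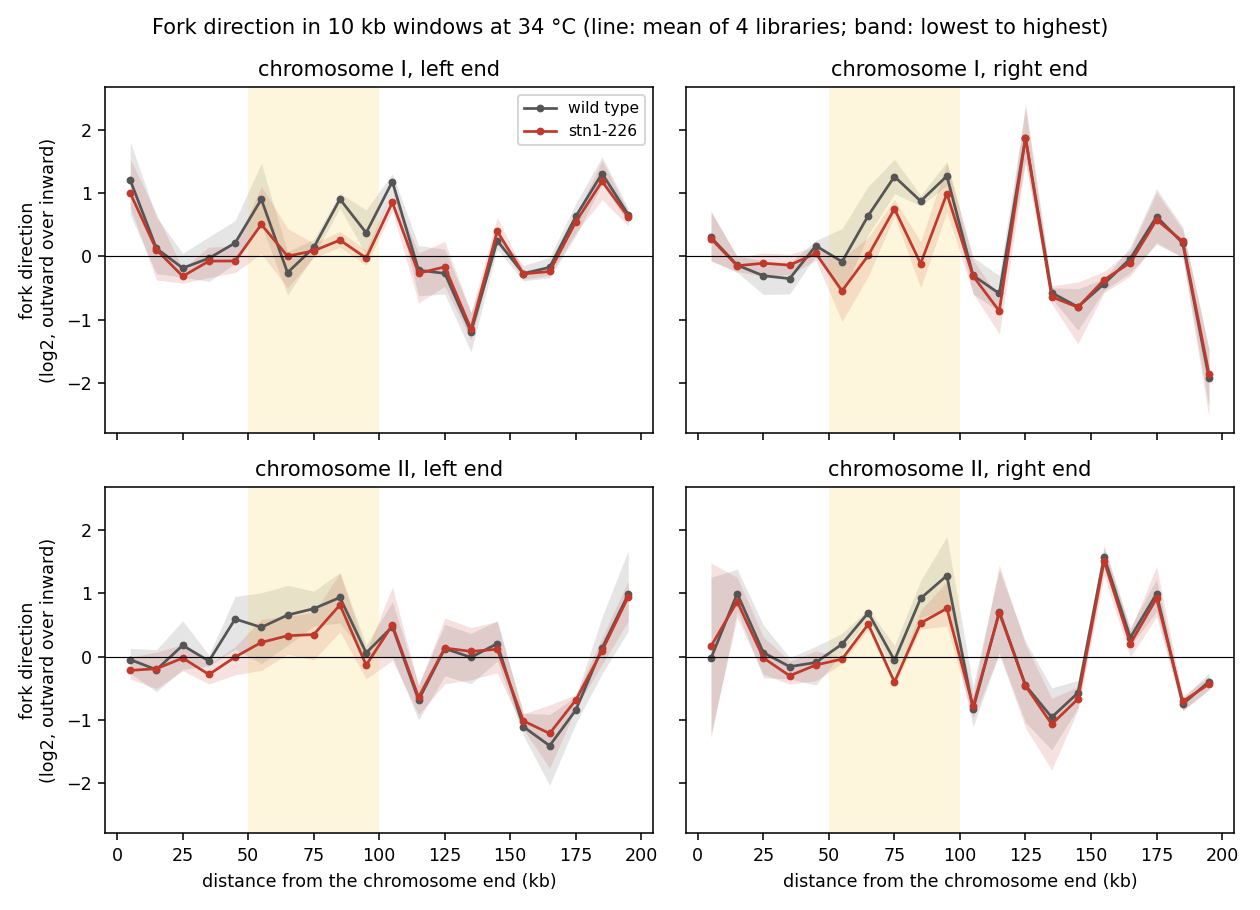
Fork direction in windows of 10 kb against the distance from each end of chromosomes I and II; lines are means of the 4 libraries of a genotype, bands run from the lowest to the highest library, and the shaded zone is 50 to 100 kb. Both genotypes follow the same peaks and troughs beyond 100 kb, and the line of stn1-226 lies lower in 19 of the 20 windows of the shaded zone.

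The 6 mean calls kept their direction and stayed past the threshold under all 13 alternatives tried, which include a fit with no replicate block, a fit of the 8 libraries alone and each library left out in turn. Dividing each library's ratios by its own spread of strand bias before a limma test gave 28 blocks in place of 6. Of the 28, 19 fell and 9 rose, and the 6 were among the falls. Most of the 28 thus lay outside the 8 blocks near the ends, so confinement to the ends depends on that choice. The change of the hry1 block ranged from -0.63 to -0.51 log2 over the alternatives. Exact permutation within each polymerase could not give a p below 2 of 36 with 2 libraries a group.

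Temperature was examined through the same pairs at 25 °C. In the hry1 block the 4 pair differences (stn1-226 minus wild type) lay between -0.81 and -0.40 at 34 °C and between -0.33 and 0.51 at 25 °C. In the SPBPB2B2.05 block they lay between -0.46 and -0.20 at 34 °C and between -0.08 and 0.38 at 25 °C. All 6 called blocks were lower in 4 of 4 pairs at 34 °C and in 1 to 3 of 4 pairs at 25 °C. These blocks were called on the same 34 °C pairs, so that contrast of counts is no test of temperature. The difference between temperatures, tested as an interaction over 32 libraries, passed in 3 of 252 blocks, all of them falls (1.19%) and all near the ends. These were SPBPB2B2.05 (-0.43 log2, SE 0.076, adjusted p = 0.0046), SPAC212.03 (-0.29, SE 0.053, adjusted p = 0.0046) and SPBC1348.09 (-0.30, SE 0.059, adjusted p = 0.0080). The hry1 block had the largest estimate of the 8 but also a wide spread at 25 °C, at -0.50 log2 (SE 0.14, adjusted p = 0.13). The sum at 50 to 100 kb differed between temperatures by -0.37 log2 (SE 0.064, adjusted p = 0.0046).

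The wild type replicates at 25 °C lay far apart in this zone, with a sum at 50 to 100 kb of 0.83 and 0.49 for Pol delta and 0.38 and 0.22 for Pol epsilon, against 0.74 and 0.71 and 0.32 and 0.26 in stn1-226. Without replicate 2 of wild type, which was the lower, 5 blocks passed, all falls: the 3 above at -0.37, -0.28 and -0.32 log2, hry1 at -0.32 (adjusted p = 0.030) and pdc102 at -0.24 (adjusted p = 0.016). The sum was then -0.26 log2 (adjusted p = 0.0026). Without wild type 25 °C Pol delta 1, 13 blocks passed, of which 12 fell and 1 rose.

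**Figure D3:**
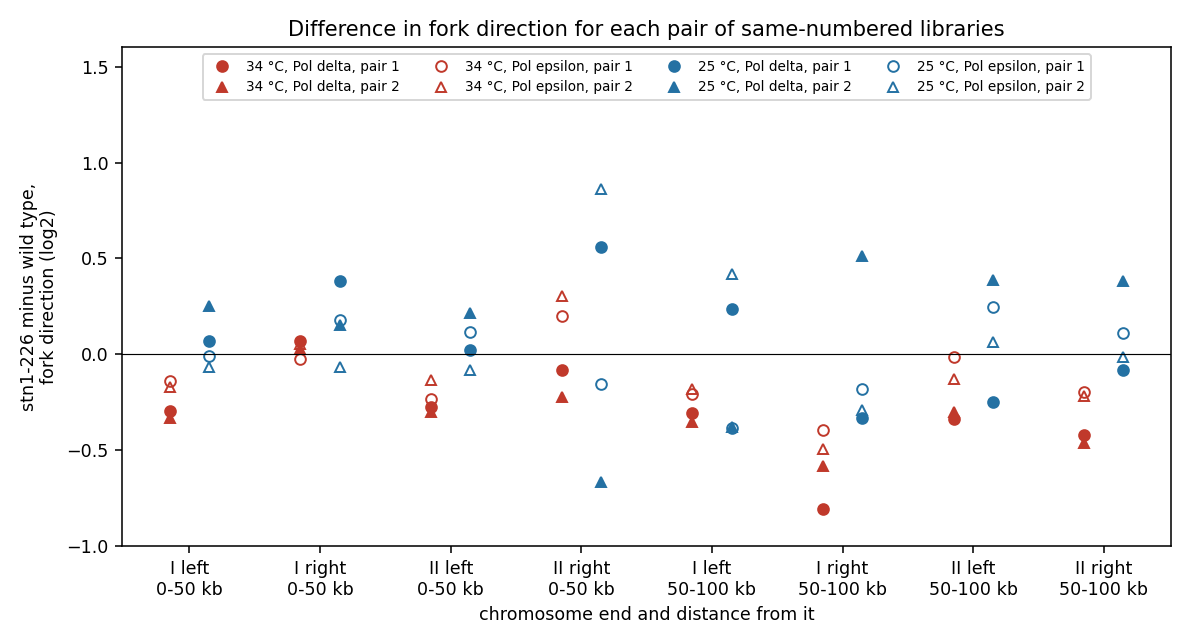
Difference in fork direction (log2, stn1-226 minus wild type) for each same-numbered pair of libraries in the 8 blocks near the ends of chromosomes I and II, at 34 °C (red) and 25 °C (blue); filled symbols are Pol delta, open symbols Pol epsilon, circles pair 1 and triangles pair 2. In 6 of the 8 blocks all 4 pairs at 34 °C lie below 0, whereas the 25 °C pairs spread on both sides of 0 in all 8. These 6 are the blocks called on the same 34 °C pairs.

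Total ends, with the strands summed and scaled per library, show where along a chromosome a library holds more or less DNA or more or fewer cuts, which cannot be told apart in these data. In stn1-226 the ends of chromosomes I and II held fewer ends, with larger estimates in Pol epsilon than in Pol delta libraries. The test of that difference between polymerases, given below, was at the threshold for the terminal sum and depended on single libraries. For Pol epsilon 11 of 252 blocks passed (4.37%), of which 10 fell (3.97%) and 1 rose, and 6 of the 8 blocks near the ends of chromosomes I and II were among the falls. For Pol delta 19 of 252 passed (7.54%), of which 13 fell (5.16%) and 6 rose, and 3 of the 8 were among the falls. These 3 include the block of chromosome II 50101 to 99900, which holds the transporter window described below (-0.99 log2 for Pol delta). Of the other 19 windows at 50 to 100 kb, 0 fell for Pol delta, so that this block's fall is not spread along the chromosome ends. The ends of chromosome III were lower too, by less. Their sum at 0 to 50 kb changed by -0.12 log2 for Pol epsilon (SE 0.030, adjusted p = 0.037). For Pol delta it changed by -0.066 log2 (SE 0.030, adjusted p = 0.15), where 49 of the 50 blocks of that chromosome were below 0.

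The right terminal block of chromosome II (4489801 to 4539804), which holds tlh2, a gene of the RecQ-type telomere-linked helicases, had the deepest fall. Relative to the median block, Pol epsilon libraries held 2.55 and 2.56 in wild type and 1.14 and 1.37 in stn1-226. Pol delta libraries held 1.97 and 2.02 in wild type and 1.28 and 1.64 in stn1-226. Ends in this block were thus above the genome's median in all 8 libraries and closer to it in stn1-226. The changes were -1.02 log2 for Pol epsilon (SE 0.085, adjusted p = 5.3e-07) and -0.45 log2 for Pol delta (SE 0.085, adjusted p = 0.0037), the latter lost without stn1-226 Pol delta 1 (adjusted p = 0.063) and with no replicate block (adjusted p = 0.19). The left terminal block of chromosome I, which holds tlh1, fell by 0.57 log2 for Pol epsilon (adjusted p = 9.7e-06) and by 0.31 log2 for Pol delta (adjusted p = 0.0056), the latter lost without replicate 1 of Pol delta in either genotype. The terminal block at the right of chromosome I fell by 0.37 log2 for Pol epsilon (adjusted p = 0.046), a call lost without any of 5 libraries (stn1-226 Pol delta 1 or 2, stn1-226 Pol epsilon 1, wild type Pol epsilon 1 or 2; adjusted p = 0.077 to 0.44), and the left one of chromosome II had -0.26 log2 (adjusted p = 0.081). The tlh genes and their surroundings are near-identical copies of each other, and how reads were divided among copies is not given in the sources used here, so values at single copies are uncertain.

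Summed over the 4 terminal blocks, relative ends were 1.62 and 1.55 in wild type and 0.99 and 1.06 in stn1-226 for Pol epsilon, and 1.31 and 1.23 against 0.97 and 1.10 for Pol delta. The changes were -0.62 log2 (SE 0.058, adjusted p = 1.3e-06) and -0.29 log2 (SE 0.058, adjusted p = 0.0056). The stn1-226 sums thus lay between 0.97 and 1.10 in both polymerases, near the median, and the excess that wild type showed at its chromosome ends was larger for Pol epsilon. The difference between the polymerases was 0.34 log2 (SE 0.082) at an adjusted p of 0.050, and it was lost under 8 of 14 alternatives, among them each of 5 libraries left out (stn1-226 Pol delta 1 or 2, stn1-226 Pol epsilon 1, wild type Pol epsilon 1 and wild type Pol delta 2, the last giving 0.21 log2) and no replicate block (adjusted p = 0.38). The Pol delta fall was lost without stn1-226 Pol delta 1 (-0.23 log2, adjusted p = 0.16) or wild type Pol delta 1 (-0.17 log2, adjusted p = 0.060) and with no replicate block (adjusted p = 0.19); the Pol epsilon fall kept its call in all 14 alternatives.

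In windows of 10 kb the Pol epsilon falls formed unbroken runs from each of the 4 ends. For Pol epsilon 51 of 1255 windows passed (4.06%), of which 47 fell (3.75%), and 17 of the 20 windows within 50 kb of the 4 ends were among them. Starting from the end, 6 windows in a row fell on the left of chromosome I, 5 on the right of chromosome I, 2 on the left of chromosome II and 7 on the right of chromosome II. For Pol delta 40 windows passed (3.19%), of which 34 fell (2.71%), and 6 of the same 20 were among them, with runs of 2, 0, 0 and 2 windows at the same ends. These lengths rest on single libraries. Without stn1-226 Pol epsilon 1 the outermost window at the right of chromosome I and the third at the right of chromosome II no longer passed, so that both runs were broken there. Each of the 4 Pol delta windows in runs lost its call without stn1-226 Pol delta 1 or without wild type Pol delta 1.

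In the outermost window of chromosome II, which holds part of tlh2, Pol epsilon libraries held 6.14 and 6.74 times the median window in wild type and 1.59 and 2.44 in stn1-226. Pol delta libraries held 4.55 and 5.60 in wild type and 2.48 and 4.11 in stn1-226. In the tlh1 window Pol epsilon libraries held 3.07 and 2.52 against 1.41 and 1.34, and Pol delta libraries 2.85 and 2.22 against 1.61 and 1.495. No library of stn1-226 reached wild type in either window. The changes were -1.71 log2 (tlh2, adjusted p = 1.7e-06) and -1.02 log2 (tlh1, adjusted p = 1.5e-05) for Pol epsilon, and -0.65 log2 (adjusted p = 0.031) and -0.69 log2 (adjusted p = 0.0023) for Pol delta. The Pol delta call at tlh2 was lost without stn1-226 Pol delta 1, wild type Pol delta 1 or wild type Pol delta 2, and that at tlh1 without stn1-226 Pol delta 1 or wild type Pol delta 1. At 25 °C the same windows held, for Pol epsilon, 4.49 and 7.89 in wild type and 3.01 and 4.32 in stn1-226 (tlh2), and 3.33 and 2.58 against 2.14 and 2.47 (tlh1), so that the Pol epsilon groups did not overlap there either. The Pol delta groups did overlap at 25 °C, with 2.55 and 6.19 in wild type and 2.62 and 2.71 in stn1-226 (tlh2), and 2.34 and 2.17 against 1.92 and 2.39 (tlh1).

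**Figure D4:**
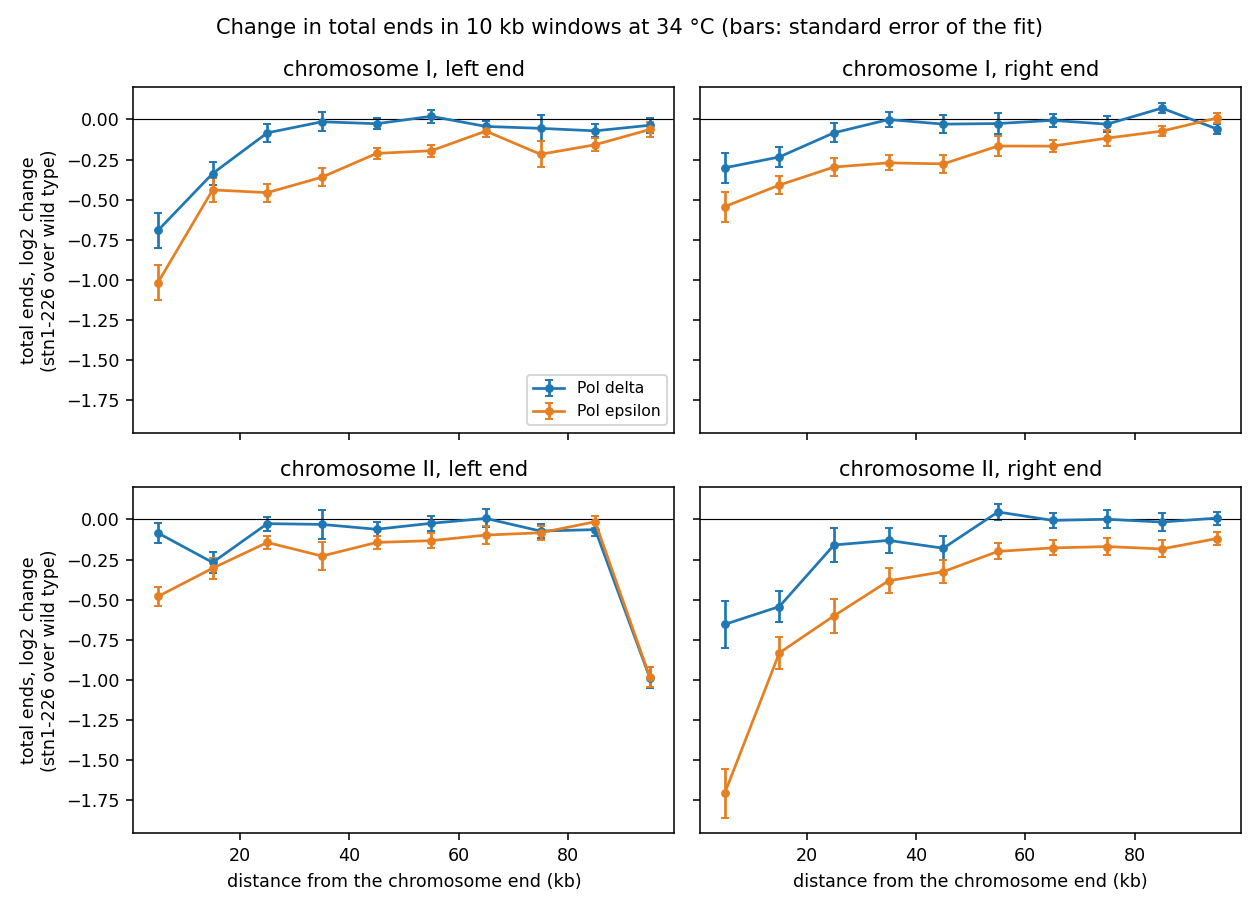
Change in total ends (log2, stn1-226 over wild type) in windows of 10 kb against the distance from each end of chromosomes I and II, for Pol delta (blue) and Pol epsilon (orange), with the standard error of the fit. The Pol epsilon change deepens toward every end, to -1.71 at the right end of chromosome II, and both polymerases share the isolated drop to -0.99 and -0.98 at 90 kb from the left end of chromosome II.

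From 50 to 100 kb inward the change was small. The sum of those 4 blocks was -0.15 log2 for Pol epsilon (SE 0.050, adjusted p = 0.12) and -0.05 log2 for Pol delta (SE 0.050, adjusted p = 0.50). In 3 of the 4 blocks the Pol epsilon fall passed, at -0.14 (SPAPJ695.02), -0.22 (SPBPB21E7.09) and -0.16 log2 (SPBPB2B2.05), and each was lost without stn1-226 Pol epsilon 1. The block of SPBPB21E7.09 holds the transporter window described below, which had -0.98 log2 for Pol epsilon. Regressing out GC content turned these 3 to 0.05, 0.07 and 0.01 log2, so their sign depends on that choice; it left the terminal sum at -0.42 log2 (adjusted p = 2.6e-06) for Pol epsilon. Fork direction thus changed most at 50 to 100 kb, and total ends within the outer 50 kb. For Pol epsilon the terminal sum differed between temperatures by -0.38 log2 (SE 0.11, adjusted p = 0.27), with -0.24 log2 at 25 °C. No block passed the test between temperatures for total ends (0% for Pol delta and 0% for Pol epsilon by edgeR; 12 and 7 blocks at an unadjusted p under 0.05), although 27 Pol delta blocks passed without wild type 25 °C Pol delta 1.

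The number of Pol delta and Pol epsilon blocks called for total ends depended on single libraries. For Pol delta it was 2 without stn1-226 Pol delta 1, 8 without stn1-226 Pol delta 2, 11 without wild type Pol delta 2, and 41 and 42 without wild type Pol epsilon 1 and 2. For Pol epsilon it was 4 without stn1-226 Pol epsilon 1, 5 without wild type Pol epsilon 1 and 7 without stn1-226 Pol delta 2. With no replicate block it was 0 for Pol delta and 5 for Pol epsilon. The terminal tlh1 and tlh2 blocks were called for Pol epsilon in each of these. At 10 kb the Pol delta count went from 40 to between 4 and 11 without any single Pol delta library, and the Pol epsilon count from 51 to 16 and 28 without stn1-226 or wild type Pol epsilon 1 and to 97 without stn1-226 Pol epsilon 2.

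Away from the ends, the block of centromere II (chromosome II 1599901 to 1650000, yox1, a transcriptional repressor of the cell cycle) moved in opposite ways in the polymerases. Pol delta libraries held 1.16 and 1.19 times the median block in wild type and 1.36 and 1.53 in stn1-226. Pol epsilon libraries held 1.51 and 1.37 in wild type and 1.04 and 1.08 in stn1-226. The order of the genotypes was thus reversed between polymerases, with no overlap in either. The changes were 0.30 log2 (SE 0.046, adjusted p = 0.0020) and -0.44 log2 (SE 0.046, adjusted p = 5.5e-06), and their difference was 0.74 log2 (SE 0.065, adjusted p = 1.9e-06). Regressing out GC content moved the Pol epsilon change to -0.05 log2 (adjusted p = 0.62) and the Pol delta change to 0.51 log2, and the Pol delta call was lost with no replicate block (adjusted p = 0.19). The difference between polymerases passed in 4 of 252 blocks (1.59%), the others being the tlh2 block at 0.57 log2, the mating-type block at -0.54 and the dnf2 block (chromosome I 200101 to 249900) at 0.12. Of these, the call at tlh2 was lost without wild type Pol delta 2, that at the mating-type region without any of 4 libraries and that at dnf2 without any of 7, whereas that of centromere II was kept in all 14 alternatives.

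In 10 kb windows the opposite changes lay on both sides of the centre of centromere II, in the windows of 1599901, 1610101 and 1629901, whereas the window of 1620001 between them had -0.15 log2 for Pol delta and -0.21 for Pol epsilon and did not pass. Only the Pol delta call at 1610101 was kept without each library in turn: that at 1629901 was lost without any 1 of the 4 Pol delta libraries, and that at 1599901 without either wild type Pol delta library or stn1-226 Pol delta 2. In the window of chromosome II 1610101 to 1620000 Pol delta libraries went from 1.07 and 1.09 to 1.49 and 1.62 (0.52 log2, adjusted p = 1.2e-06), and Pol epsilon libraries from 1.58 and 1.43 to 0.97 and 0.98 (-0.62 log2, adjusted p = 6.7e-08). At 25 °C the Pol delta libraries of this window held 0.88 and 1.33 in wild type and 1.81 and 1.49 in stn1-226, while the Pol epsilon libraries held 1.19 and 0.88 against 0.94 and 0.89. The Pol delta order was therefore the same at both temperatures, and the Pol epsilon groups overlapped at 25 °C. Centromeres I and III had windows that fell for Pol epsilon, at -0.27 log2 (emc5, chromosome I) and -0.23 log2 (ppc1, chromosome III), and 0 that passed for Pol delta. Over the 30 windows within 50 kb of a centromere, 7 fell for Pol epsilon, against 47 of all 1255 windows (3.75%), and 3 rose for Pol delta, against 6 of 1255 (0.478%), the 3 being those of centromere II. The centromeric repeats, like the tlh genes, are copies that reads may be shared among.

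The mating-type region on chromosome II, with mat1 and the silent cassettes mat2 and mat3 from which it switches, held more ends in stn1-226. In the window of 2120101 to 2130000 Pol epsilon libraries went from 0.89 and 0.89 to 3.49 and 3.69 (2.01 log2, adjusted p = 2.6e-09) and Pol delta libraries from 0.92 and 1.02 to 1.81 and 2.08 (1.01 log2, adjusted p = 1.7e-05). It was the only block to rise for Pol epsilon, at 1.07 log2 (adjusted p = 5.3e-07). The same window held 2.77 and 3.24 in Pol epsilon libraries of stn1-226 at 25 °C against 0.75 and 0.89 in wild type, so the difference was present at both temperatures. Wild type is labelled h- and no mating type is given for stn1-226, so that a difference in the arrangement of this region cannot be told apart from the allele.

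A window 90 kb from the left end of chromosome II (90001 to 99900, with the transporter genes SPBPB10D8.04C to SPBPB10D8.06C) held about the median in wild type, at 0.97 and 1.01 for Pol delta and 1.04 and 0.89 for Pol epsilon. In stn1-226 it held 0.48 and 0.52 for Pol delta and 0.48 and 0.51 for Pol epsilon. The fall was of one size in both polymerases, -0.99 log2 (adjusted p = 7.9e-08) and -0.98 log2 (adjusted p = 3.7e-08), and at 25 °C stn1-226 held 0.55 to 0.60 there against 0.89 to 1.73 in wild type. The neighbouring window with SPBPB10D8.07C fell by 0.32 and 0.23 log2. These 4 genes are similar copies in tandem, and their copy number in each strain was not tested.

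**Figure D5:**
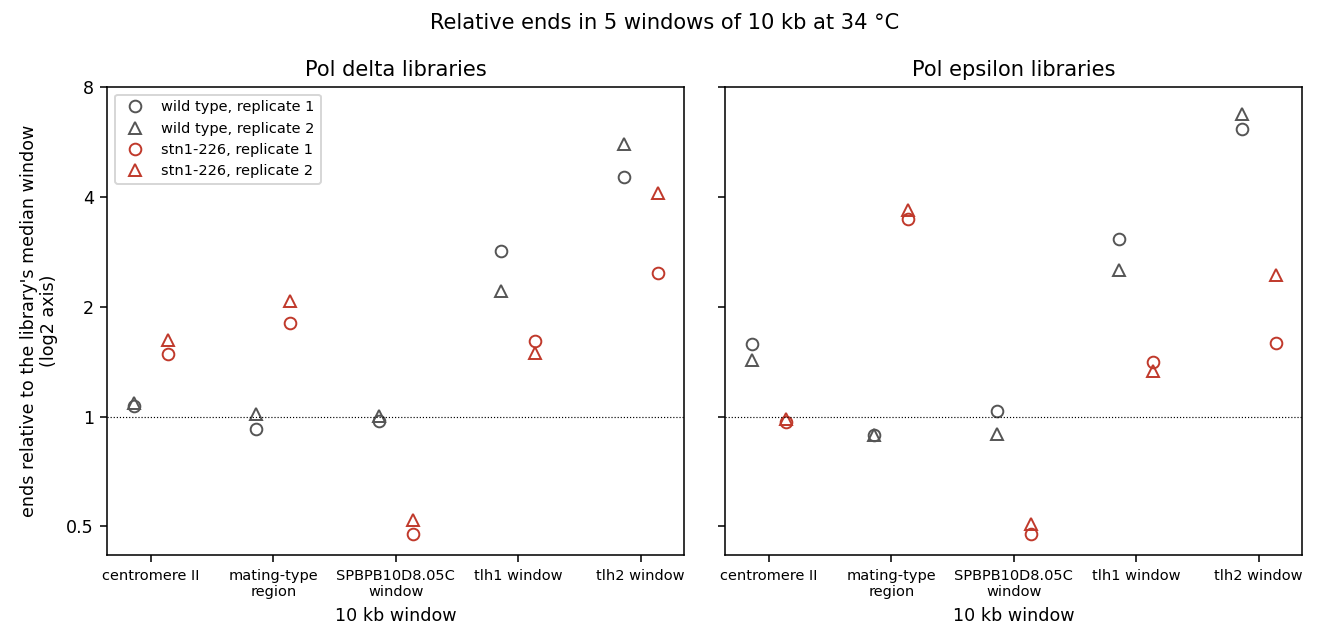
Ends relative to the library's median window (log2 axis) in 5 windows of 10 kb for Pol delta (left) and Pol epsilon (right); circles and triangles are replicates 1 and 2. The centromere II window is higher in stn1-226 for Pol delta and lower for Pol epsilon, the mating-type window is higher and the SPBPB10D8.05C window lower for both polymerases, and the tlh windows are lower for both.

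The Tf2 retrotransposons are the active LTR elements of this species. Of 17 windows with one, 6 fell for Pol epsilon, against 3.75% of all windows, and the other 11 did not pass; all 17 estimates were below 0, with a median of -0.11 log2 against 0.00 over all 1255 windows; 0 passed for Pol delta, with a median of -0.03 log2. The windows with Tf2-7 (-0.41 log2, adjusted p = 4.0e-05), Tf2-11 (-0.24), Tf2-6 (-0.20) and Tf2-2 (-0.20) were among the falls. The elements are near-identical, and neither their number in each strain nor the sharing of reads between them was tested. On chromosome III, ends included but without the windows near its centromere or with Tf2, 16 of 229 windows fell for Pol delta (2.71% of all windows did), 193 of 229 were below 0, and the median was -0.04 log2 against 0.02 over 935 windows of chromosomes I and II away from their ends, centromeres, Tf2 elements, mating-type region and transporter genes. The deepest of the Pol delta falls there was -0.16 log2 (SPCC777.06C). In 50 kb blocks, 8 of 50 on chromosome III fell for Pol delta, by at most 0.11 log2 (ags1, a glucan synthase), and all 8 lost their call without stn1-226 Pol delta 1. The replicates' files hold chromosome III with 8084 and 8177 bins, so they were placed on common coordinates before the comparison.

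Of 12 genes of the telomere machinery, tlh1 and tlh2 lay in windows that fell for both polymerases. The windows of pot1, tpz1, poz1, ccq1, taz1, rap1, rif1, stn1 and trt1 (the telomerase subunit) lay between -0.05 and 0.06 log2 for both polymerases and did not pass. The window of ten1, the partner of Stn1, was the exception on chromosome III, at -0.14 log2 for Pol delta (adjusted p = 0.041) and -0.11 log2 for Pol epsilon (adjusted p = 0.083). A fall for Pol delta is not particular to it, since 193 of the 229 windows counted above on that chromosome were below 0 and 16 fell.

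Initiation was measured as the step in strand bias at 534 sites, the log2 ratio of ends that label forks leaving a site to those that label forks reaching it, over 10 bins on each side. No site passed for Pol delta (0%) or for Pol epsilon (0%) by edgeR, with 17 and 11 sites at an unadjusted p under 0.05; limma on the ratios gave 0 and 0 as well, with 10 and 7 unadjusted. With the ratios scaled by strand bias, limma called 27 Pol delta sites (20 rose, 7 fell) and 2 Pol epsilon sites (1 rose, 1 fell). At ars1 (chromosome I 1095901, beside hus5, whose sequence is given above) Pol delta steps were 1.28 and 1.06 in wild type and 1.33 and 1.04 in stn1-226. Pol epsilon steps there were 1.88 and 1.97 in wild type and 1.93 and 1.41 in stn1-226. The libraries of both genotypes were thus interleaved for Pol delta, and the changes were 0.02 log2 (SE 0.20) and -0.25 log2 (SE 0.20). At the site of chromosome III 123301, the nearest to ura4 and its origin ars3002, the mean change was -0.04 log2 (SE 0.20).

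At 50 to 100 kb from the chromosome ends a larger share of steps was above 0 than over all sites, above all in Pol delta libraries. Of the 16 sites at 50 to 100 kb, 13 were above 0 for Pol delta with a median of 0.22 log2, against 218 of 534 sites and a median of -0.02 over all. For Pol epsilon 8 of 16 were above 0 with a median of -0.00, against 160 of 534 and a median of -0.06 over all. Within 50 kb of an end, 8 of 14 sites were above 0 for Pol delta and 11 of 14 for Pol epsilon (medians 0.05 and 0.03). Within 50 kb of a centromere, 3 of 22 were above 0 for each polymerase (medians -0.13 and -0.10). At the site beside hry1 (5502001) Pol delta steps were 0.13 and 0.28 in wild type and 0.51 and 0.68 in stn1-226, and Pol epsilon steps 1.06 and 0.95 against 1.38 and 0.93. The groups did not overlap for Pol delta and did for Pol epsilon, and the mean change was 0.27 log2 (SE 0.12, adjusted p = 0.99). The site beside SPAPJ695.01C (chromosome I 79201) had steps of -0.09 and 0.04 against 0.41 and 0.40 for Pol delta and 0.30 and 0.38 against 0.67 and 0.76 for Pol epsilon, a mean change of 0.40 log2 (SE 0.10, adjusted p = 0.58). In contrast, the sites beside tlh2 (chromosome II 4526401) and tlh1 (chromosome I 6301) had -0.22 log2 (SE 0.045, adjusted p = 0.40) and -0.18 log2 (SE 0.046, adjusted p = 0.58). These 3 sites had the smallest p-values of the 534 and were named after their values were seen. A step also moves with the fork direction around it, so it is not independent of the values above.

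Simulated data set the size that could be seen. In data drawn from these libraries, with 534 sites, the test found 17 of 50 sites changed by 0.5 log2 and 50 of 50 changed by 1 log2 for Pol delta, and 18 and 49 of 50 for Pol epsilon. For fork direction in 252 blocks it found 20 of 20 blocks changed by 0.5 log2 for each polymerase. A step change of 0.5 log2 in either polymerase was therefore mostly missed at single sites. Smaller changes, such as that beside hry1, and the mean of both polymerases were not simulated.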

How the data were processed

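Ends were counted by the authors per strand in bins of 300 bp, and the deposited values are raw counts, 2 files a library, with 2 libraries in each group. Alkali treatment, selection of 300 to 500 bp fragments and sequencing are per the labels' protocols, and Bowtie2 is named per the submitters' processing notes; for its version and for the build, nothing is stated in the sources used here. Chromosome lengths of the files were set against RefSeq ASM294v3, and chromosome III of the shorter files was shifted by 15000 bp, where strand ratios of the replicates matched best. Bins over 10 times the median were masked (35 bins, 34 of them on chromosome III), which left 41780. Total ends, fork direction and steps were summed in 252 blocks of 50 kb, 1255 windows of 10 kb and 534 sites. The sites are local maxima within 10 bins of the mean step of the 32 libraries without taz1 deletion, where that mean exceeded 0.36 log2.

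Counts were tested with edgeR 4.0.16 (quasi-likelihood, TMM, mean of at least 10 ends, Benjamini-Hochberg over all features, threshold 0.05) in R 4.3.3. The 16 libraries at 34 °C of all 4 genotypes there share 1 estimate of spread (6 residual degrees of freedom), with the replicate number within a polymerase as a block; the comparison of temperatures used 32 libraries, and the 4 libraries of a taz1 strain were not used. Direction and steps were fitted as opposed counts of 1 library. Sums of blocks entered the same fit and adjustment. The replicate numbers come from the titles, and same-numbered libraries deviated together (r = 0.70 and 0.73 for total ends, 0.91 and 0.37 for direction, 0.88 and 0.48 for steps, Pol delta and Pol epsilon). The text names, for each test, up to 10 called features with the largest change in each direction, the chromosome ends, centromeres, mating-type region, ars1 and ura4 regions, the genes of the genotypes and 12 telomere genes; others are said to be chosen after their values were seen. Members and lists were chosen with earlier results of these data known.

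Scripts were tested on simulated data. Alternatives were no block, the 8 libraries alone, each library left out, DESeq2 1.42.0 and its size factors, no filter, GC content regressed out, limma 3.58.1 on ratios with and without scaling by strand bias, and other flanks and site sets. Counting error is small beside the spread between libraries at 5801492 ends or more.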

Additional observations from a re-analysis of the deposited data

Results flagged for a closer look

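The change in fork direction differed between 34 and 25 °C, by the test of the interaction (edgeR), in the blocks of SPAC212.03 (-0.29 log2, SE 0.053, adjusted p = 0.0046), SPBC1348.09 (-0.30, SE 0.059, adjusted p = 0.0080) and SPBPB2B2.05 (-0.43, SE 0.076, adjusted p = 0.0046), and in the sum of the 4 blocks at 50 to 100 kb (-0.37, SE 0.064, adjusted p = 0.0046). In all of these the pairs at 34 °C were lower in stn1-226 than those at 25 °C on average.

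The change in total ends differed between Pol delta and Pol epsilon libraries in the blocks of centromere II (0.74 log2, SE 0.065, adjusted p = 1.9e-06), the right end of chromosome II (0.57, SE 0.12, adjusted p = 0.031), the mating-type region (-0.54, SE 0.13, adjusted p = 0.050) and dnf2 (0.12, SE 0.029, adjusted p = 0.050). No explanation of these differences was tested.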

How the results depend on the processing

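The 6 mean falls in fork direction stayed past the threshold in all 13 alternatives, the Pol epsilon fall of the terminal sum in total ends in all 14, and the number of mean falls was 6 without each library in turn. Other counts moved. With no replicate block, calls in total ends were 0 (Pol delta), 5 (Pol epsilon) and 1 (their difference) for blocks and 3 and 15 for windows, and calls in direction were 6 and 1. With the 8 libraries alone they were 43 for Pol delta blocks, 4 for Pol delta windows, 16 for Pol delta direction and 1 for Pol epsilon steps. GC regression gave 43 Pol delta (17 rose, 26 fell) and 6 Pol epsilon blocks (3 rose, 3 fell), DESeq2 size factors 7 Pol epsilon blocks, and DESeq2 itself 2 for the difference. Scaling by strand bias gave 53, 23 and 28 direction blocks (Pol delta, Pol epsilon, mean) and 27 and 2 sites with a changed step. Without wild type 25 °C replicate 2, the test between temperatures gave 2 Pol epsilon and 5 direction blocks. Leaving out 1 library gave 2 to 42 Pol delta blocks, 4 to 16 Pol epsilon blocks, 1 to 12 for their difference, 4 to 50 and 16 to 97 windows, 6 to 10 and 0 to 5 direction blocks, 0 sites, and between temperatures 0 to 27 Pol delta, 0 to 1 Pol epsilon and 3 to 13 direction blocks. Smoothing over 20 bins moved the spread of strand bias in wild type to 1.10 (Pol delta 1), 1.30 and 1.37 (Pol epsilon 1 and 2). Signs turned for Pol epsilon total ends under GC regression (sum at 50 to 100 kb 0.039, SPAPJ695.02 0.046, the centromere I block of per1 0.058, SPBPB21E7.09 0.067, SPBPB2B2.05 0.015), for the Pol delta sum at 50 to 100 kb (0.047 under GC regression, and -0.12 to 0.019 without 1 library), for the ars1 step (Pol delta -0.044 with flanks of 20 bins and -0.030 to 0.064 without 1 library, Pol epsilon -0.53 to 0.024), and for the terminal block at the right of chromosome II between temperatures (-0.33 to 0.13 without 1 library). Values above 0 came without wild type Pol delta 1 in the sum, wild type Pol epsilon 2 in the Pol epsilon step and, in the last, without stn1-226 25 °C Pol delta 1 or Pol epsilon 2 or wild type 25 °C Pol delta 1 or Pol epsilon 2; the Pol delta step was below 0 without stn1-226 Pol delta 1. The cause was not tested. Of the values for single features, 1218 kept direction and side of the threshold, 283 were no longer past it, 11 were newly past it and 14 turned sign. The designs have 2 libraries a group from 1 strain each, and 6 residual degrees of freedom.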

Other observations

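The masked repeat bins, nearly all at the ends of chromosome III, held 1.25% to 7.61% of the ends of the 8 libraries at 34 °C, and more in replicate 1 than in replicate 2 of every group. In replicate 1 the share was 7.14% in wild type and 7.61% in stn1-226 for Pol delta, and 6.88% and 3.25% for Pol epsilon. In replicate 2 it was 2.27% and 2.89% for Pol delta, and 1.84% and 1.25% for Pol epsilon. The Pol epsilon share was thus lower in stn1-226 in both pairs, and at 25 °C it was 5.38% in wild type and 2.41% in stn1-226 in replicate 1 and 1.12% and 1.20% in replicate 2. With 2 libraries a group no exact test of these shares could pass 0.05, and they are given as values.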
